A study of Mus musculus with 9 samples.

Results

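Cytokines and chemokines are the secreted or membrane-bound signals through which activated B cells act on their neighbours, and 10 of them were followed here through an immunoprecipitation of phosphorylated UPF1. The 10 genes were taken by symbol, through their NCBI Gene numbers, from the 27179 gene identifiers of the count table. They were the tumor necrosis factor family genes Tnf, Lta and Ltb, the growth factor Csf1, the chemokines Ccl3, Ccl4 and Ccl22, and the cytokines Il6, Il10 and Tgfb1. Of the 10, 9 had enough reads to be tested, and Il10 did not.

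The cells were CD43-negative splenic B cells of wild-type mice, of both sexes and 8 to 16 weeks old per the study's methods, and all 9 libraries came from cells activated in the same way for 72 h. The stimuli named in the labels were CD40L at 5 ug/mL, anti-IgM at 10 ug/mL and IL-4 at 20 ng/mL, while the methods name an anti-CD40 antibody in place of the ligand. In RNA immunoprecipitation sequencing (RIP-seq), lysate was incubated with an antibody to phosphorylated UPF1 (p-UPF1 libraries, n = 3) or with normal rabbit IgG (IgG libraries, n = 3), and the RNA that came down was sequenced beside that of the lysate (input libraries, n = 3). There was no unstimulated group and no UPF1-deficient group, so the data compare precipitates of the same kind of cells and not states of activation. The stimuli were given to isolated B cells in culture, not in the animal.

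UPF1 is the RNA helicase at the centre of nonsense-mediated mRNA decay, and its phosphorylation accompanies the recruitment of decay enzymes to an mRNA. Features known to favour this decay are an exon junction well downstream of the stop codon, a long 3′ untranslated region (3′ UTR) and short reading frames upstream of the main one. Many cytokine mRNAs are short-lived through another route, in which proteins bind AU-rich elements, stretches of overlapping ATTTA pentamers in the 3′ UTR, and recruit deadenylases.

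The libraries held 17372510 to 24945286 counts each, and 14979 to 17554 genes had at least 1 count. Log-scaled levels of replicate libraries correlated at r = 0.9926 to 0.9985 over the tested genes. The markers of B cells were well expressed, with all 5 of them (Cd79a, Cd79b, Ms4a1, Cd22 and Pax5) summing to between 2436 and 2451 CPM in the input libraries (CPM are counts divided by the library total after trimmed-mean scaling, TMM, and set to a common size). All 6 T cell markers, all 5 neutrophil markers and all 4 basophil and mast cell markers lay below 1 CPM in input. Of the 4 natural killer cell markers 3 lay below 1 CPM and Prf1 (2.79 CPM) did not, with a sum of 3.01 to 3.41 CPM in input. None of the 4 plasma cell markers lay below 1 CPM in input. Their sum was 275 to 281 CPM in input, 217 to 249 CPM in IgG and 135 to 137 CPM in p-UPF1, most of it Xbp1. Of the 6 macrophage and monocyte markers, Csf1r, Lyz2, Cd14 and Itgam lay below 1 CPM and Adgre1 and Cd68 did not, with a summed level of 142 to 154 CPM in input, 94.5 to 103 CPM in IgG and 60.5 to 62.2 CPM in p-UPF1, most of it Adgre1. Of the 5 dendritic cell markers, Xcr1 and Siglech lay below 1 CPM, and the sum was 40.9 to 41.9 CPM in input, 42.3 to 48.5 CPM in IgG and 178 to 181 CPM in p-UPF1, most of it Zbtb46, whose own log2 fold change was 2.08 over IgG and 2.26 over input. By the methods, input and precipitates are portions of the same cell lysate, so no difference in cell makeup between them is part of the design. For a level within a group of libraries, the number of cells of a type and the RNA per cell cannot be told apart, and what cells with these markers added to the members' levels was not tested.

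The AU-rich sites of the 3′ UTRs are shown first, because several cytokine mRNAs, Tnf among them, are textbook carriers of such sites and because their number differed widely among the 10. They were found by a search for ATTTA and for the longer TTATTTATT, which contains ATTTA, on the mRNA strand only and with overlapping matches counted, in the curated RefSeq transcript with the longest 3′ UTR of each gene. Below are 30 bases of the 3′ UTR of 5 members, each 30-base window being one with the most ATTTA in that 3′ UTR, written 5′ to 3′ as DNA with ATTTA in capitals.
Tnf: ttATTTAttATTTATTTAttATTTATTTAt
Lta: aaagttaagttATTTATTTAtagagaatag
Il6: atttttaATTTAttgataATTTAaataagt
Ccl3: aatactATTTAattttgtaATTTAttttat
Csf1: taaggtcATTTAaatatctATTTAaaaaat
On GRCm38, the assembly that mm10 names, the Tnf window lies at chr17:35199678-35199707 (minus strand), the Lta window at chr17:35203394-35203423 (minus strand) and the Il6 window at chr5:30019684-30019713 (plus strand). The Ccl3 window lies at chr11:83648042-83648071 (minus strand) and the Csf1 window at chr3:107741103-107741132 (minus strand), all of them in the last exon. The Tnf window held 5 pentamers and each of the others held 2.

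Tnf carried the most sites of any member, with 8 ATTTA and 5 TTATTTATT in a 3′ UTR of 778 bases. Of 1456 tested genes with a 3′ UTR within 20% of that length, 0.0687% had as many ATTTA, which is Tnf itself, and 4.12% had any TTATTTATT. Ccl3 had 5 ATTTA in 410 bases and Il6 had 6 in 507 bases, numbers reached by 0.598% and 0.609% of tested genes with 3′ UTRs of similar length. Il10 also had 6, in 702 bases, and 1.16% of such genes had as many. Lta had 3 ATTTA and 1 TTATTTATT in 572 bases, and 10.9% of such genes had at least 3. Csf1, with 4 in 2111 bases, stood with the bulk of mRNAs of its kind, since 46.6% of tested genes with a similar 3′ UTR had at least as many. Ccl4 had 2 ATTTA in 302 bases, Ccl22 had 2 in 1502 bases, Tgfb1 had 1 in 135 bases and Ltb had none in 159 bases. Over all 11896 tested genes with a curated coding transcript, 7.59% had a TTATTTATT. A match is a description of the letters and says nothing of which protein occupied them.

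Csf1, which encodes the macrophage colony-stimulating factor that keeps macrophages and osteoclast precursors alive, was the member with the largest rise in p-UPF1. Its level was 357, 362 and 362 CPM in the input libraries and 335, 331 and 331 CPM in the IgG libraries, against 1820, 1902 and 1897 CPM in the p-UPF1 libraries. Every p-UPF1 library lay above every control library, and input and IgG lay close together. The p-UPF1 libraries exceeded IgG 5.64-fold (log2 fold change 2.50 ± 0.04 SE, adjusted p = 3.72e-18, n = 3 against 3) and input 5.19-fold (log2 fold change 2.38 ± 0.04 SE, adjusted p = 3.22e-18), both from edgeR's quasi-likelihood test with adjustment after Benjamini and Hochberg over all 13129 tested genes. A log2 fold change of 0 in such a comparison is that of the typical mRNA of the library, since the scaling assumes that most RNAs do not change. Of the tested genes, 412 (3.14%) had a higher value over IgG than Csf1 and 434 (3.31%) had a higher value over input. In the p-UPF1 libraries 21 to 24 genes had a higher CPM than Csf1, against 447 to 452 in input and 435 to 474 in IgG.

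**Figure D1:**
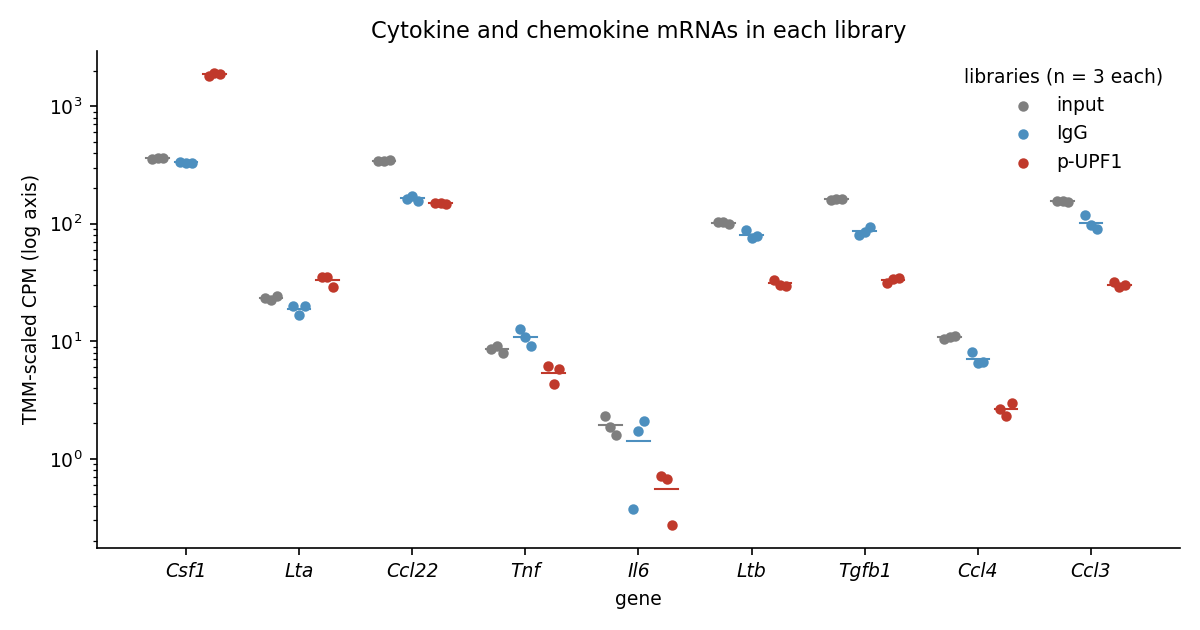
Level of the 9 tested cytokine and chemokine mRNAs in each library, as TMM-scaled CPM on a log axis; each point is 1 library, colours mark input, IgG and p-UPF1 (3 libraries each), and the bar is the group mean. Csf1 rose from 361 CPM in input and 332 CPM in IgG to 1873 CPM in p-UPF1, Lta was also highest in p-UPF1, and the other 7 had their lowest mean there.

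Both criteria of the study's methods for a p-UPF1-bound RNA, minimum log2 changes of 1 against IgG and 2 against input with adjusted p under 0.05 in each, were met by 1 of the 9 tested members, Csf1, and by 6.25% of all tested genes. The share of Csf1 in the sum of all 10 members is free of the scaling between libraries, yet it also rises where other members fall. Csf1 accounted for 30.9% ± 0.05 (SD, n = 3) of the members' summed CPM in input, for 41.3% ± 0.69 in IgG and for 86.8% ± 0.48 in p-UPF1. The share was higher in IgG than in input although Csf1's own mean was 332 CPM in IgG and 361 CPM in input. In p-UPF1 it combines the rise of Csf1 with the lower levels of other members.

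Csf1 (NCBI Gene 12977, chr3:107741048-107760469, minus strand) has 3 curated transcripts, of which 2 end in a 3′ UTR of 2111 bases and 1 in a 3′ UTR of 259 bases. It had the longest 3′ UTR of the 10 members, and 24.7% of tested genes had one at least as long. Its 5′ UTR of 406 bases held 3 ATG triplets ahead of the start codon, a number that 20.9% of tested genes reached. It was also the only member with an exon junction after the stop codon, 13 bases after it in all 3 transcripts, a property shared by 722 (6.07%) of tested genes. All 3 features together, with limits set at Csf1's own values, were present in 46 (0.387%) of tested genes, Csf1 included. Their log2 fold changes had medians of 0.45 against IgG and 0.56 against input, where all 11896 had 0.01 and 0.00. Taken singly, a 3′ UTR as long had medians of 0.37 and 0.45, and as many ATG 0.31 and 0.31. A junction after the stop codon had 0.07 and 0.07. A junction more than 55 bases after the stop codon, the distance usually taken to matter for decay, was present in 36 tested genes (0.303%), with medians of 0.93 against IgG and 0.78 against input, and Csf1 was not among them. Counts per gene cannot tell the 3 transcripts apart. The predicted gene Gm40121 overlaps Csf1 on the opposite strand and was not analysed here.

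The members of the tumor necrosis factor family did not move together, although the 3 genes lie side by side on chromosome 17. Lta (16992, chr17:35203165-35205578, minus strand) encodes lymphotoxin alpha, which acts as a secreted trimer or joined to lymphotoxin beta on the cell surface. Its level was 23.2, 22.3 and 24.4 CPM in input, 19.9, 16.7 and 19.8 CPM in IgG and 35.3, 35.5 and 28.8 CPM in p-UPF1. The 3 p-UPF1 libraries lay above all others. Lta rose 1.77-fold over IgG (log2 fold change 0.82 ± 0.09 SE, adjusted p = 3.75e-07) and 1.43-fold over input (0.51 ± 0.09 SE, adjusted p = 5.42e-05, edgeR's quasi-likelihood test for both), short of both minimum changes for a bound RNA. Of the tested genes, 26.7% had a higher value over IgG and 34.7% a higher value over input.

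Tnf (21926, chr17:35199367-35202007, minus strand) encodes tumor necrosis factor itself, released from the membrane by the protease ADAM17. It was a low-abundance mRNA, with 8.60, 9.13 and 7.95 CPM in input, 12.8, 10.9 and 9.13 CPM in IgG and 6.11, 4.29 and 5.76 CPM in p-UPF1, from 95 to 240 counts a library. All p-UPF1 libraries were below all control libraries. Tnf fell by 1.02 ± 0.15 SE on the log2 scale against IgG (adjusted p = 9.65e-06) and by 0.67 ± 0.15 SE against input (adjusted p = 7.26e-04, edgeR's quasi-likelihood test for both). Ltb (16994, chr17:35194507-35196305, plus strand), which encodes the membrane-anchoring partner of lymphotoxin alpha, went from 103, 103 and 98.9 CPM in input and 87.9, 76.2 and 78.3 CPM in IgG to 33.0, 30.4 and 29.6 CPM in p-UPF1. The 3 groups of libraries did not overlap. Ltb fell by 1.38 ± 0.06 SE against IgG (adjusted p = 2.28e-12) and by 1.71 ± 0.06 SE against input (adjusted p = 9.32e-14) on the log2 scale in edgeR's quasi-likelihood test. The microRNA genes Mir6974 and Mir6973a lie within Lta and Ltb on the same strand, so reads there could belong to either annotation.

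The 3 chemokines were all lower in p-UPF1 than in input, to differing extents against IgG. Ccl3 and Ccl4, which draw T cells and monocytes, are neighbours on chromosome 11 (Ccl3 20302, chr11:83647843-83649378, minus strand; Ccl4 20303, chr11:83648624-83664683, plus strand). Ccl3 had 155, 156 and 154 CPM in input, 117, 98.0 and 91.0 CPM in IgG and 32.0, 28.9 and 29.9 CPM in p-UPF1. It was the lowest member over IgG and over input, at a log2 fold change of -1.75 ± 0.08 SE (adjusted p = 1.95e-12) and of -2.35 ± 0.08 SE (adjusted p = 2.70e-14, edgeR's quasi-likelihood test), and 90.7% and 93.5% of tested genes had higher values.

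Ccl4, far less abundant, followed the same order of groups. It had 10.4, 10.9 and 11.1 CPM in input, 8.02, 6.58 and 6.67 CPM in IgG and 2.65, 2.30 and 2.99 CPM in p-UPF1, from 51 to 257 counts a library. The groups did not overlap. Its log2 fold change was -1.42 ± 0.14 SE over IgG (adjusted p = 1.20e-07) and -2.03 ± 0.14 SE over input (adjusted p = 5.30e-10, edgeR's quasi-likelihood test). The overlap of the 2 genes on opposite strands comes from a predicted Ccl4 transcript alone, the curated one starting at position 83662584.

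Ccl22 (20299, chr8:94745684-94751388, plus strand) encodes the ligand of CCR4 that brings regulatory and helper T cells to activated B cells. Its level was 340, 343 and 346 CPM in input, 163, 174 and 157 CPM in IgG and 150, 150 and 148 CPM in p-UPF1. Both precipitates lay far below input, and they lay close to each other. Against input Ccl22 fell by 1.20 ± 0.04 SE on the log2 scale in p-UPF1 (adjusted p = 6.76e-14) and by 1.06 ± 0.04 SE in IgG (adjusted p = 3.35e-11), 2 comparisons that share the input libraries. Between the precipitates the log2 fold change was -0.14 ± 0.04 SE (adjusted p = 0.00707, edgeR's quasi-likelihood test), with 53.5% of tested genes higher. That last call was lost without IgG replicate B (log2 fold change -0.08, adjusted p = 0.0764) and with no filter on low counts (-0.09, adjusted p = 0.102).

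Tgfb1 (21803, chr7:25687002-25705077, plus strand) encodes transforming growth factor beta 1, a suppressor of lymphocyte growth and a switch factor for IgA. It had 158, 162 and 164 CPM in input, 80.0, 84.6 and 93.5 CPM in IgG and 31.1, 33.6 and 34.4 CPM in p-UPF1. The groups formed 3 separate levels. Tgfb1 fell by 1.38 ± 0.06 SE on the log2 scale against IgG (adjusted p = 1.61e-12) and by 2.29 ± 0.06 SE against input (adjusted p = 1.41e-15, edgeR's quasi-likelihood test).

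Il6 and Il10, the cytokines most often measured as products of effector and regulatory B cells, were scarce or at the limit of detection in these cultures. Il6 (16193, chr5:30013114-30019975, plus strand) had 57, 37 and 31 counts in input, 7, 34 and 41 counts in IgG and 17, 15 and 6 counts in p-UPF1. One IgG library thus lay within the range of the p-UPF1 libraries, and the input libraries lay above all p-UPF1 libraries. The log2 fold change was -1.33 ± 0.50 SE over IgG (adjusted p = 0.0220) and -1.78 ± 0.47 SE over input (adjusted p = 0.00254, edgeR's quasi-likelihood test). The call over IgG was lost with limma-voom (adjusted p = 0.0927) and without IgG replicate B (0.0806), IgG replicate C (0.129) or p-UPF1 replicate C (0.100). The overlapping antisense gene A230098N10Rik had 0 counts in every library.

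Il10 (16153, chr1:131019845-131024970, plus strand), the main cytokine of regulatory B cells, had 1 count in 1 input library and 2 counts in 1 p-UPF1 library, and 0 counts in the other 7 libraries. It was too low to judge in any comparison. With 3 counts taken as the limit that a count of 0 allows, the libraries at 0 allow up to 0.122 and 0.151 CPM in input, 0.153 to 0.159 CPM in IgG and 0.126 and 0.135 CPM in p-UPF1, counting error alone. No other member fell under the minimum of 10 counts in every library of a comparison.

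**Figure D2:**
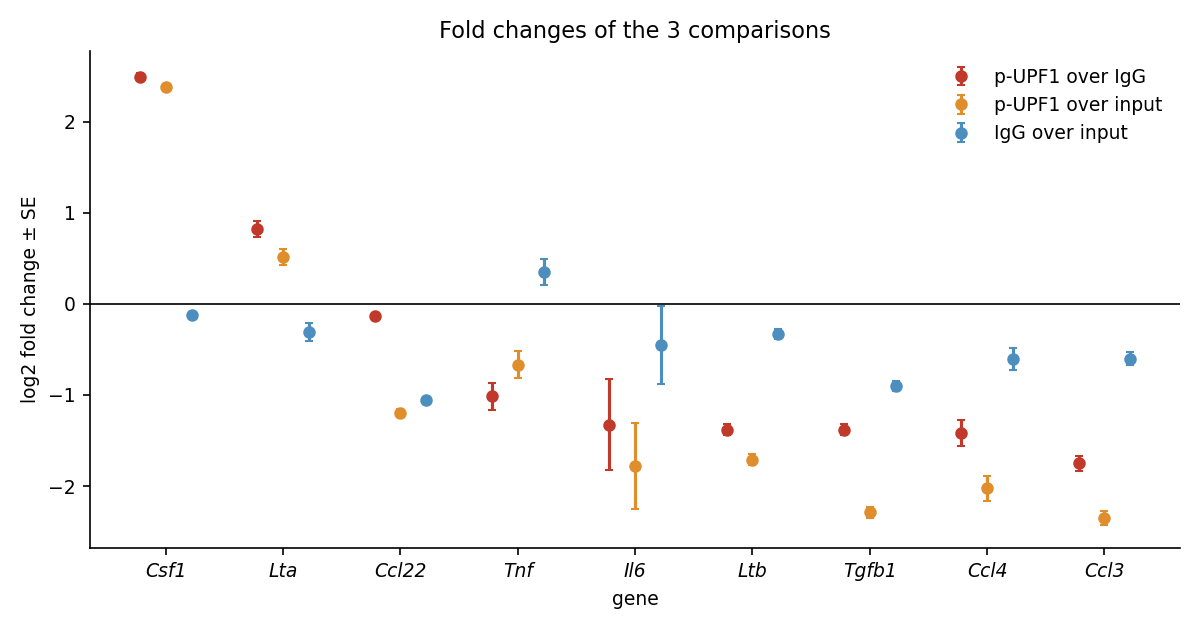
Log2 fold change (points) and its SE (bars) of the 9 tested members in each of the 3 comparisons, with 3 libraries in each group. Csf1 (2.50 and 2.38) and Lta (0.82 and 0.51) lie above 0 in both p-UPF1 comparisons and the other 7 lie below 0, while the values of IgG over input run from -1.06 (Ccl22) to 0.35 (Tnf).

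Counted over the 9 tested members by edgeR's quasi-likelihood test, with calls made below an adjusted p of 0.05, 2 were higher and 7 were lower in p-UPF1 than in IgG, where 40.4% of all tested genes were higher and 42.2% lower. Against input, 2 were higher and 7 lower, where 40.8% of tested genes were higher and 42.6% lower. The members' median log2 fold change was -1.33 over IgG and -1.71 over input, and that of all tested genes was -0.03 in both. With so many genes called in each direction, a call alone did not set a member apart, and its size and rank among all genes are the more telling values. The 2 comparisons share the p-UPF1 libraries. Under 5 other scalings the median of all genes ran from -0.19 to 0.00 over IgG and from -0.10 to 0.10 over input, that of the members from -1.48 to -1.30 and from -1.78 to -1.58, and no tested member changed direction.

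**Figure D3:**
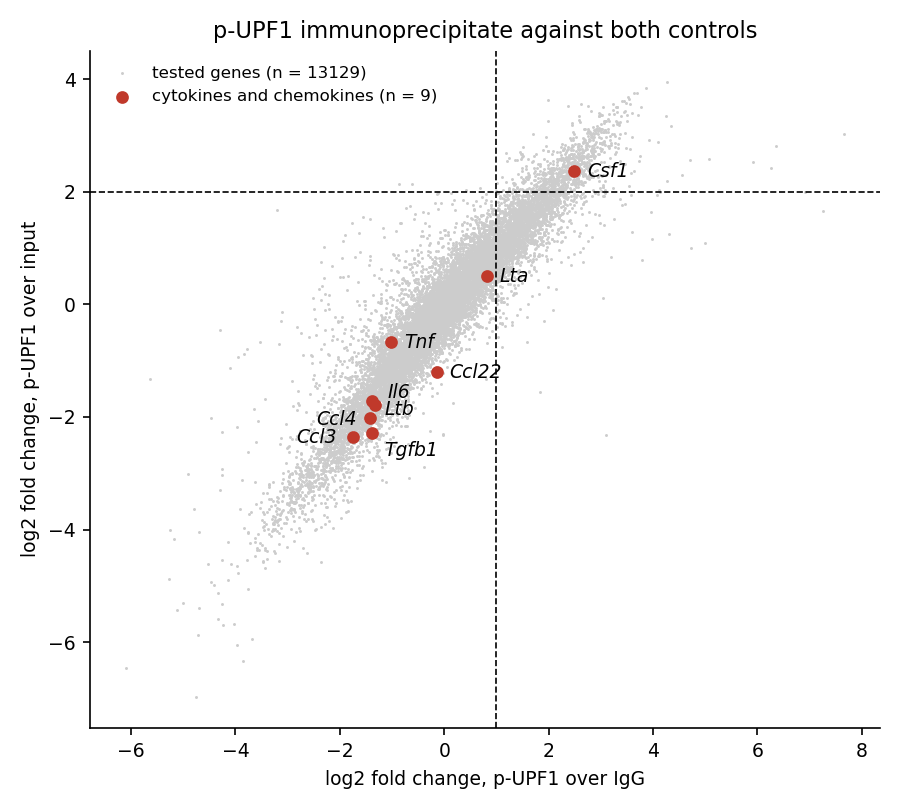
Log2 fold change over IgG (x axis) and over input (y axis) for the 13129 tested genes (grey) and the 9 tested cytokines and chemokines (red), with dashed lines at the minimum changes of 1 over IgG and 2 over input. Csf1 alone among the red points lies past both lines, at 2.50 and 2.38, and Lta lies at 0.82 and 0.51. Both axes share the p-UPF1 libraries.

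The IgG precipitate is the background of the method, and the members were already unequal in it. Against input, 0 of the 9 were higher by the same test and threshold, where 18.2% of tested genes were, and 7 were lower, where 34.7% of tested genes were. At an unadjusted p under 0.05, 1 member (Tnf) was higher in edgeR, in DESeq2 and in limma-voom, and DESeq2 alone of the 3 also called it after adjustment. Ccl22 and Tgfb1 had lower log2 fold changes in IgG than nearly all other RNAs, at -1.06 and -0.91 ± 0.05 SE (adjusted p = 2.57e-09 for Tgfb1), with 97.7% and 96.4% of tested genes higher. Ccl3 (-0.60 ± 0.07 SE, adjusted p = 2.65e-06), Ccl4 (-0.61 ± 0.12 SE, adjusted p = 6.10e-04) and Ltb (-0.33 ± 0.06 SE, adjusted p = 1.46e-04) were also lower in edgeR's quasi-likelihood test.

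For the remaining 4 the IgG background was close to input or not settled. Lta (-0.31 ± 0.10 SE, adjusted p = 0.0124) and Csf1 (-0.12 ± 0.03 SE, adjusted p = 0.00889) were lower in edgeR's quasi-likelihood test, yet lost the call in 6 and 7 of 21 alternatives, most of them other scalings, with adjusted p up to 0.116 and 0.943, and Lta also lost it without IgG replicate B (0.0567). Tnf had 0.35 ± 0.14 SE (adjusted p = 0.0507), which passed in 12 of 21 alternatives, among them those without IgG replicate C (adjusted p = 0.0120) and without p-UPF1 replicate B (0.0405). Il6 had -0.45 ± 0.42 SE (adjusted p = 0.392), with overlapping libraries. The comparison of p-UPF1 with IgG gave a smaller drop than that with input for Ccl22, Tgfb1, Ccl3, Ccl4 and Ltb, all of them lower in IgG than in input.

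Levels of different genes were compared per length, as CPM per kilobase of exon. In the input libraries Ccl3 (196 ± 0.82 SD) and Ccl22 (189 ± 1.75) led, followed by Ltb (92.7 ± 2.08), Csf1 (81.6 ± 0.65) and Tgfb1 (74.2 ± 1.30), then by Lta (16.8 ± 0.76), Ccl4 (16.4 ± 0.51), Tnf (5.18 ± 0.36) and Il6 (1.68 ± 0.32), n = 3 each. Lta and Ccl4 overlapped between libraries, and no other neighbours in that order did. In IgG the order was Ccl3 (129 ± 17.4), Ccl22 (90.8 ± 4.74), Csf1 (75.1 ± 0.56), Ltb (73.8 ± 5.71) and Tgfb1 (39.5 ± 3.16), with Csf1 and Ltb overlapping, as did Lta (13.6 ± 1.32) and Ccl4 (10.7 ± 1.22) below them. In p-UPF1 Csf1 led with 424 ± 10.4 CPM per kilobase, and Ccl22 (82.6 ± 0.54), Ccl3 (38.3 ± 1.96), Ltb (28.3 ± 1.64), Lta (24.0 ± 2.76) and Tgfb1 (15.2 ± 0.78) followed without overlap. Ccl4 (4.01 ± 0.52) and Tnf (3.26 ± 0.58) overlapped there, ahead of Il6 (0.486 ± 0.22). Chemokines thus held the first places in the input and in the IgG background, and Csf1 moved from the fourth place in input to the first in p-UPF1.

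The coefficient of variation over 3 libraries ran, among the tested members, from 0.42% (Ccl3) to 19.2% (Il6) in input, from 0.75% (Csf1) to 65.0% (Il6) in IgG and from 0.66% (Ccl22) to 44.3% (Il6) in p-UPF1. It was higher in IgG than in input for all of them but Csf1 (0.80% in input), and higher in p-UPF1 than in input for all but Ccl22 (0.92% in input). These differences in spread were not tested.

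Over all genes, mRNAs with longer 3′ UTRs had higher values in p-UPF1, and the members were spread along that range. In 4 classes of equal size by 3′ UTR length over 11896 tested genes, the log2 fold change over IgG had a median of -0.80 in the shortest class (up to 446 bases), -0.01 in the next (up to 1066 bases), 0.45 in the third (up to 2091 bases) and 0.37 in the longest. Against input the medians were -0.91, -0.07, 0.41 and 0.46. Spearman's rho between 3′ UTR length and log2 fold change over these genes was 0.35 for IgG and 0.37 for input, a description across genes that share libraries and are not independent replicates.

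Ltb, Ccl3, Ccl4 and Tgfb1, with 3′ UTRs of 135 to 410 bases, fall in the shortest class, and each lay below that class's median over IgG and over input. Csf1, with 2111 bases, is the only member in the longest class and lay above its median, at 2.50 against 0.37 over IgG. In the class from 446 to 1066 bases, Lta (572 bases) rose while Il6 (507 bases) and Tnf (778 bases) were below the median, and Ccl22 (1502 bases) fell in a class whose median was above 0. Total mRNA length showed the same order of medians at its short end, with -0.86 against IgG and -1.12 against input in the shortest class (up to 1925 bases). That class holds all 9 tested members except Csf1 (4176 bases) and Tgfb1 (2175 bases).

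The 3 tested members with the most AU-rich sites per base did not rise in p-UPF1. Tnf, Ccl3 and Il6, with 10.3, 12.2 and 11.8 ATTTA per kilobase of 3′ UTR, all had lower levels in p-UPF1 than in IgG, and so did Ltb, which has none. Tgfb1 (7.41 per kilobase), Ccl4 (6.62) and Ccl22 (1.33) were also lower than in IgG. Lta (5.24, with 1 TTATTTATT) and Csf1 (1.89) were higher. Whether the sites bear on these levels was not tested. The 903 tested genes with a TTATTTATT had medians of 0.15 against IgG and 0.24 against input. The 9 with at least 5 of them, the number that Tnf has, include Tnf and had medians of -0.75 and -0.67. The median against input is the value of Tnf itself, so it adds nothing beyond Tnf.

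**Figure D4:**
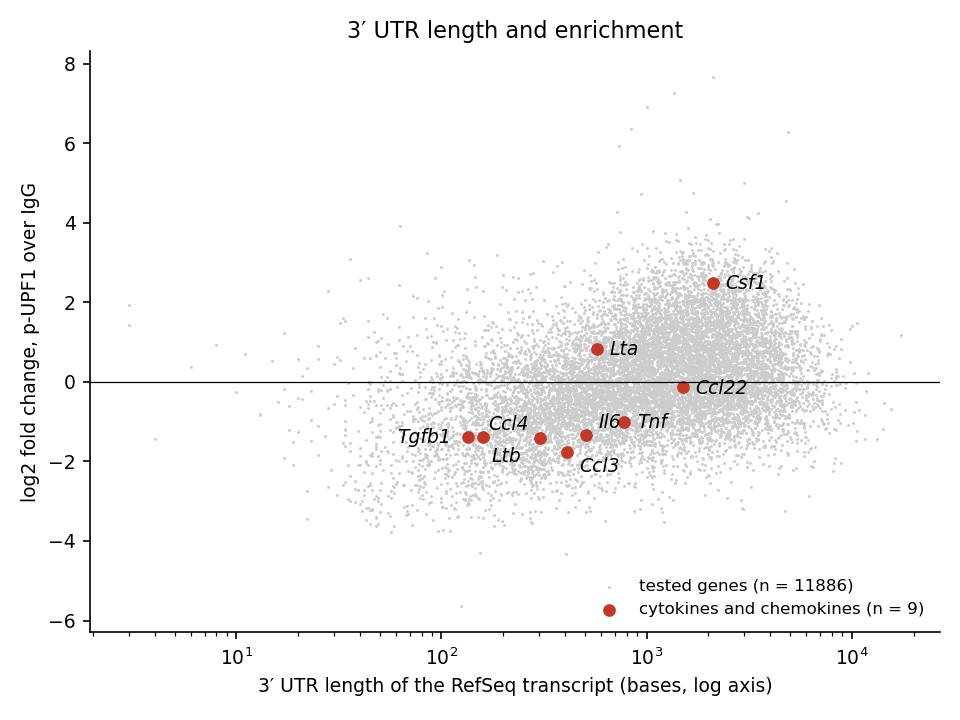
Log2 fold change of p-UPF1 over IgG (y axis) against the 3′ UTR length in bases of the RefSeq transcript with the longest 3′ UTR (log x axis) for 11886 tested genes (grey) and the 9 tested cytokines and chemokines (red). Csf1, with 2111 bases, is the rightmost red point and the highest, and Tgfb1, Ltb, Ccl4 and Ccl3 lie at the left below 0.

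The receptors of the same signals were tested beside their ligands, with no test of the difference between the lists. Of 15 receptor genes 11 were tested, and over IgG 7 were higher, 2 were lower and 2 did not pass in edgeR's quasi-likelihood test, the median log2 fold change being 0.66, against 40.4% higher and 42.2% lower over all tested genes. Over input 8 were higher, 2 were lower and 1 did not pass, with a median of 1.26, against 40.8% and 42.6% of all tested genes. Both criteria for a bound RNA were met by 4 of the 11: Tnfrsf1b, Ccr4, Il6ra and Il10ra, against 6.25% of all tested genes. These 4 remained bound under all 22 alternatives.

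Il6ra, the ligand-binding chain of the interleukin-6 receptor, had the highest value of the list over IgG and over input, with 12.4, 11.7 and 11.8 CPM in input, 12.1, 10.4 and 8.98 CPM in IgG and 77.2, 73.8 and 77.1 CPM in p-UPF1. Its log2 fold change was 2.86 ± 0.08 SE over IgG (adjusted p = 5.18e-15) and 2.67 ± 0.08 SE over input (adjusted p = 6.55e-15, edgeR's quasi-likelihood test). Ccr4, the receptor of Ccl22, went from 28.1, 25.8 and 27.6 CPM in input and 23.2, 23.9 and 25.1 CPM in IgG to 176, 166 and 166 CPM in p-UPF1. Ccr4 thus rose by 2.82 ± 0.05 SE over IgG and 2.64 ± 0.05 SE over input on the log2 scale (adjusted p = 5.62e-17 and 6.26e-17, edgeR's quasi-likelihood test).

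Tnfrsf1b, the tumor necrosis factor receptor found on lymphocytes, rose by 2.74 ± 0.06 SE on the log2 scale over IgG (adjusted p = 1.70e-16) and 2.60 ± 0.06 SE over input (adjusted p = 1.96e-16). Il10ra, the interleukin-10-binding chain, had 2.09 ± 0.15 SE (adjusted p = 1.50e-09) and 2.43 ± 0.16 SE (adjusted p = 2.33e-10, edgeR's quasi-likelihood test). The lowest of the list was Tnfrsf14, a receptor for lymphotoxin alpha and LIGHT, at -0.47 ± 0.13 SE over IgG (adjusted p = 0.00419) and -0.78 ± 0.13 SE over input (adjusted p = 3.51e-05). Csf1r, the receptor of Csf1, had at most 2 counts in any library and was not tested, as were Tnfrsf1a, Ccr1 and Ccr3. In IgG against input 2 of the 11 were higher, 3 lower and 6 did not pass, against 18.2% and 34.7% of all tested genes.

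**Figure D5:**
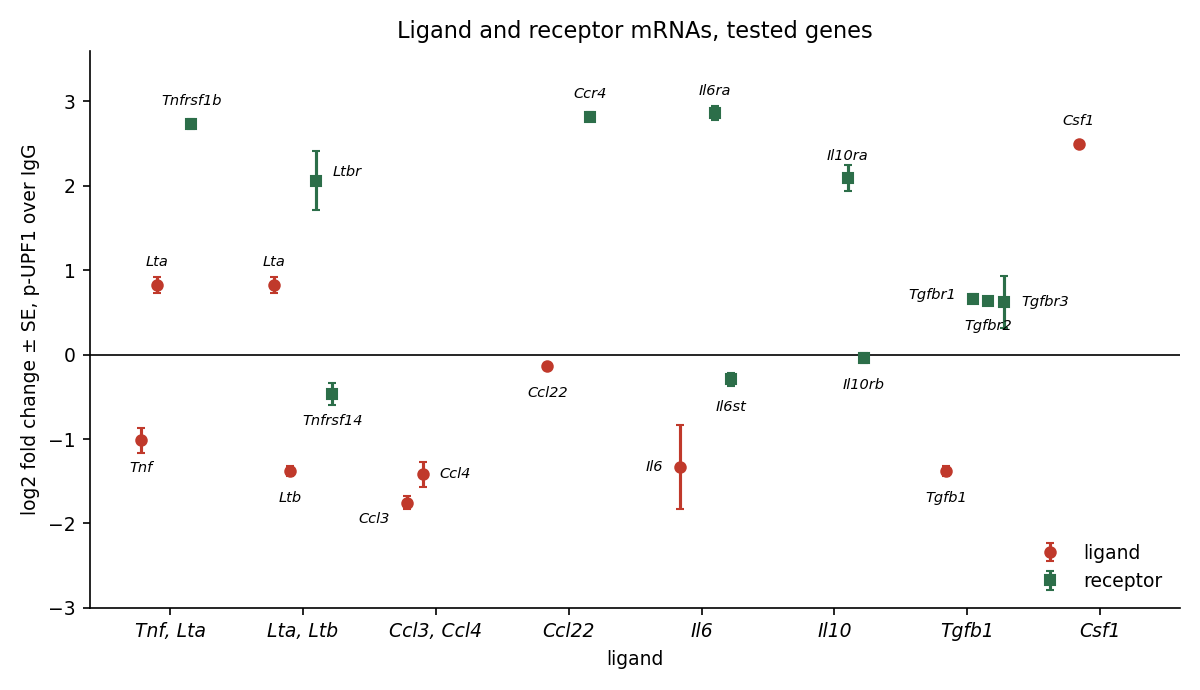
Log2 fold change of p-UPF1 over IgG with its SE for tested ligands (red circles) and tested receptor genes (green squares), arranged by ligand, 3 libraries per group; Lta appears with both partners. Il6ra (2.86), Ccr4 (2.82) and Tnfrsf1b (2.74) lie well above Il6 (-1.33), Ccl22 (-0.14) and Tnf (-1.02). Il6st (-0.29) and Tnfrsf14 (-0.47) are the 2 receptors called lower, against 7 called higher, and Il10rb (-0.04) lies near 0. Il10 itself was not tested, and Csf1, Ccl3 and Ccl4 are shown without a receptor.

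Genes for the processing and release of these cytokines went both ways, by less than the largest changes among the members. Of 9 such genes 8 were tested, and over IgG 3 were higher, 1 was lower and 4 did not pass, the median log2 fold change being 0.07 and none meeting both criteria, where 40.4% of all tested genes were higher, 42.2% lower and 6.25% met both. Furin, a protease that cleaves the Tgfb1 precursor, was the highest over IgG at 0.92 ± 0.07 SE (adjusted p = 1.24e-09), with 0.73 ± 0.06 SE over input (adjusted p = 2.01e-08). Itgav, the integrin chain that helps free latent Tgfb1, was the lowest over IgG at -0.29 ± 0.05 SE (adjusted p = 1.87e-05, edgeR's quasi-likelihood test). Over input 4 were higher, 2 were lower and 2 did not pass, against 40.8% and 42.6% of all tested genes. In IgG against input 3 were higher, 2 lower and 3 did not pass, against 18.2% and 34.7%.

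A wider list of 56 other cytokine and chemokine genes contained 26 with enough reads to test, and 4 of the 56 had no count at all. Over IgG 14 were higher, 7 lower and 5 did not pass, the median log2 fold change being 0.77, where 40.4% of all tested genes were higher and 42.2% lower. Over input 13 were higher, 9 lower and 4 did not pass, with a median of 0.48, where 40.8% were higher and 42.6% lower. In IgG against input 3 were higher, 9 lower and 14 did not pass, where 18.2% were higher and 34.7% lower. Both criteria were met by 3 of the 26, against 6.25% of all tested genes: Tnfsf8, Tnfsf14 and Fasl.

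Tnfsf8, the ligand of CD30, was the highest of the list over IgG, going from 46.9, 42.8 and 45.4 CPM in input and 41.7, 50.7 and 47.5 CPM in IgG to 294, 305 and 288 CPM in p-UPF1. Its log2 fold change was 2.66 ± 0.06 SE over IgG (adjusted p = 3.59e-16) and 2.71 ± 0.06 SE over input (adjusted p = 2.24e-16, edgeR's quasi-likelihood test). Tnfsf14, which encodes LIGHT, rose by 2.02 ± 0.13 SE and 2.26 ± 0.13 SE on the log2 scale (adjusted p = 3.49e-10 and 7.72e-11). Fasl, the death ligand, rose by 1.42 ± 0.36 SE and 2.03 ± 0.38 SE (adjusted p = 0.00162 and 1.05e-04) from 8 to 30 counts in the control libraries, and met both criteria in 14 of 21 alternatives, and neither Fasl nor Tnfsf14 was bound by glmTreat, which tests the minimum change itself. Without input replicate B, p-UPF1 replicate A or p-UPF1 replicate B its log2 change against input was 1.96, 1.89 and 1.99, below the minimum. The number of bound genes in this list ran from 1 (glmTreat) to 5 over the alternatives. The lowest of the list over IgG was the chemokine Xcl1, at -2.63 ± 0.16 SE (adjusted p = 1.39e-10), with -2.88 ± 0.16 SE over input (adjusted p = 2.55e-11, edgeR's quasi-likelihood test), both below the values of every tested member.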

How the data were processed

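RIP-seq counts of activated wild-type splenic B cells (3 input, 3 IgG and 3 p-UPF1 libraries) were analysed as deposited: the authors deposited raw counts per NCBI Gene identifier, not normalised. Per the labels, reads were processed with cutadapt, HISAT2, featureCounts and mm10, and no versions are given in the sources used here. The methods state unstranded single-end counting for RNA-seq and nothing separate for RIP-seq, so strand use is not known and genes overlapping on opposite strands are uncertain. Without molecular identifiers, PCR copies were counted as reads, and limits given for counts of 0 cover counting error only.

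Columns carried letters and were assigned to groups by name. The methods call the points plotted in the study's graphs independent biological replicates, but neither they nor the labels say what separated the RIP-seq libraries of a group, so p-values measure the spread between libraries, which may be technical. Of 27179 identifiers, filterByExpr (minimum count 10, minimum total 15) kept 13129, with 99.9% of counts. Counts were scaled by TMM and fitted with edgeR 4.0.16 (glmQLFit, glmQLFTest, two-sided, prior count 0.125, 6 residual degrees of freedom, R 4.3.3), with Benjamini-Hochberg adjustment over all tested genes. SE was derived from the test statistic. Alternatives used other scalings and filters, DESeq2 1.42.0, limma-voom (limma 3.58.1), glmTreat, a prior count of 2, the compared groups alone, each library left out and, added after seeing the data, the column letter as a block.

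The 10 members and all gene lists were chosen with earlier results of these data known, and 2 listed genes are not reported here. The rule for naming took all members and, from each other list, the tested genes highest and lowest over IgG and those meeting both criteria. The receptor genes Il6st and Il10rb were named outside this rule. Transcript features, gene positions and sequences are those of RefSeq on GRCm38, with exon lengths as the union of exons, and 25275 identifiers matched a RefSeq symbol.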

Additional observations from a re-analysis of the deposited data

How the results depend on the processing

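Csf1 met both criteria for a bound RNA under all 22 alternatives, while the number of bound genes over all tested genes ran from 541 (glmTreat, which tests the minimum change itself) to 1088 (no filter on low counts), against 820. Over 567 values of a member in a comparison, 536 kept their direction and their side of the threshold, 19 lost a call, 12 gained one and 0 changed direction. The number of members higher in IgG than in input went from 0 to 1, by Tnf, with RLE factors, upper-quartile factors, library size alone, an input or an IgG library as TMM reference, no low-count filter, a minimum of 1 CPM in 3 libraries, DESeq2 and the compared groups alone, and ranged from 0 to 1 when 1 library was left out. Its value turned on IgG replicate C and p-UPF1 replicate B, without either of which Tnf passed. The planned fit with the labels' replicate numbers as a block was not run, since the columns carry letters that the labels do not tie to those numbers. A replicate block by column letter, chosen after seeing the data, left 4 residual degrees of freedom and again gave 1 member higher in IgG than in input (Tnf, adjusted p = 0.0394), and it changed no other call of a member. The methods take the input from the lysate that was precipitated but do not say what a letter marks. Same-letter libraries of different groups deviated together only weakly (r = 0.03 to 0.10 over 9 pairs, against -0.07 to 0.02 over 18 pairs of different letters), and every library correlated best with its own letter, a hint from the data and not the design. Depth limits Il6 (at most 57 counts a library) and Il10, and no fold change was given for Il10.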
